A study of Populus tomentosa with 4 samples.

Results

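The loci described here are 160 predicted microRNA targets of the poplar cell wall and of lignin formation, out of 10305 distinct predicted loci in the authors' table (1.55%). A locus was taken when its Swiss-Prot description named cellulose synthase, peroxidase, pectinesterase, expansin, xyloglucan, cinnamoyl, cinnamyl, caffeoyl or a galacturonic acid word, and laccases were left out; wall loci below means these 160. Within the table the choice used descriptions alone and no measured value. A locus stands in the table only through a microRNA that passed the authors' FDR. Small RNA was sequenced from shoot tips, labelled SAM as well, and from the leaves around them, in Chinese white poplar (Populus tomentosa) trees aged 20 years that grew outdoors without a named treatment. There were 2 libraries of each tissue and 4 in all, and nothing in the labels says that they came from separate trees, so the authors' FDR may rest on technical spread alone. The study asks which microRNAs differ between shoot tip and leaf, and the table joins each of them to its predicted loci. No messenger RNA was measured, so predicted loci say nothing of transcript levels, and the tissues could not be checked against marker genes.

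Plant microRNAs are short RNAs, loaded into Argonaute proteins, that pair almost fully with a transcript and guide its cleavage or block its translation. The wall around a growing plant cell is a network of cellulose fibrils tethered by xyloglucan and embedded in pectin. Expansins, xyloglucan endotransglucosylases, pectinesterases and polygalacturonases loosen or remodel it while the cell grows. Cells that have stopped growing, above all in wood, add a secondary wall and harden it with lignin, whose alcohol units are made by the cinnamoyl, cinnamyl and caffeoyl enzymes and oxidised in the wall by class III peroxidases and laccases. Roles given below for enzymes are those known from Arabidopsis unless another species is named, since 112 of the 160 descriptions were best hits to Arabidopsis thaliana.

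The 160 loci were predicted for 82 distinct mature sequences, which carry 142 of the 193 listed microRNA names. Of these sequences 40 belong to named families and 42 carry a running number only; the numbered names are given here without the word they all begin with. The sequences that the results below turn on are printed 5' to 3', with the seed (bases 2 to 8) in capitals, as the authors' table holds them, in T for numbered and U for named ones. Of the first 4, m0661-3p, miR169t and m0773-5p were each predicted for 6 classes of wall genes, and miR169ae shares the seed of miR169t.
m0661-3p: tAAACGTGggtctggcaaactgcc
miR169t: gAGCCAAGaaugacuugccgg
miR169ae: uAGCCAAGgacgacuugccca
m0773-5p: cTTCCATTttgggtactgta

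The next 5 were each predicted for several loci of at least 1 class: peroxidases (miR473a-5p, m0866-5p, miR390a), expansins (miR408-3p), and both cellulose synthases and galacturonosyltransferases (m2623-3p). M0866-5p also had the xyloglucan locus POPTR_1795s00200, and m2623-3p the peroxidase locus POPTR_0010s04550.
miR473a-5p: aCUCUCCCucaaggcuucca
m0866-5p: tCTGTCACaatagctagcttt
miR390a: aAGCUCAGgagggauagcgcc
miR408-3p: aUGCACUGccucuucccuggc
m2623-3p: tATTCTGGtgtcctaggcgtaga

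The last set shows how close to each other some of the sequences are that were predicted for 1 locus. The 4 miR396 sequences differ at 1 or 2 positions, miR159d and miR319e at 1 position over 20 nt, m1702-3p and m1831-5p at 2 positions, and m0129-5p is m0130-5p moved by 1 base.
miR396a: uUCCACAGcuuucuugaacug
miR396c: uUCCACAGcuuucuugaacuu
miR396f: uUCCACGGcuuucuugaacug
miR396g-5p: uUCCACGGcuuucuugaacuu
miR159d: cUUGGAUUgaagggagcuccu
miR159e: cUUGGGGUgaagggagcuccu
miR319e: uUGGACUGaagggagcuccu
m1702-3p: tGGATCTGgtagccatgtcaaacc
m1831-5p: tGGATCTGgcagtcatgtcaaacc
m0129-5p: tGGACTTCcattagctcttcg
m0130-5p: aTGGACTTccattagctcttc

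Each value below is a signal, the read abundance of a microRNA as the authors normalized it and pooled it over both libraries of a tissue; its scale is not stated. Higher and lower always mean shoot tips against leaves by the authors' log2 fold change, and every listed name had an FDR (adjusted p) below 0.05, the largest being 0.0493. Depth of the libraries is not stated. In such bulk tissue, fewer cells that hold a microRNA and less of it per cell cannot be told apart. The signals up to 5000 are sums of whole multiples of 2 steps, from which the reads of the 2 unlabelled libraries of each tissue were recovered; these give the library values printed below and replace an SD. The floor used for a signal listed at 0 is 3 reads, a signal of 1.43 in shoot tips and 1.99 in leaves, and it covers counting error only.

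Of the 160 wall and lignin loci, 72 (45.0%) were predicted for at least 1 sequence that was higher in shoot tips, against 44.1% of all predicted loci. At least 1 lower sequence was predicted for 103 of them (64.4%), against 67% of all loci, and sequences of both directions for 15 of them (9.38%), against 11.1%. All 3 shares lie near those of the whole table. Of their 82 sequences 37 were higher and 45 lower, while 42.1% of all 107 listed sequences were higher and 57.9% lower. Their median log2 fold change was -1.21, also with sequences listed at 0 placed at the floor, and that of all listed sequences was -1.65.

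Of all predicted loci 33% had higher sequences only and 55.9% lower ones only, and the bar plot of loci by class shows how the 11 classes divided beside this; no difference between classes was tested. Cellulose synthase A had 4 loci with higher sequences only and 4 with lower ones only. All 6 caffeoyl loci had lower sequences only. Pectinesterases, polygalacturonases and peroxidases, the largest classes with 33, 25 and 33 loci, had 18, 14 and 18 loci with lower sequences only, shares close to that of all predicted loci.

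**Figure D1:**
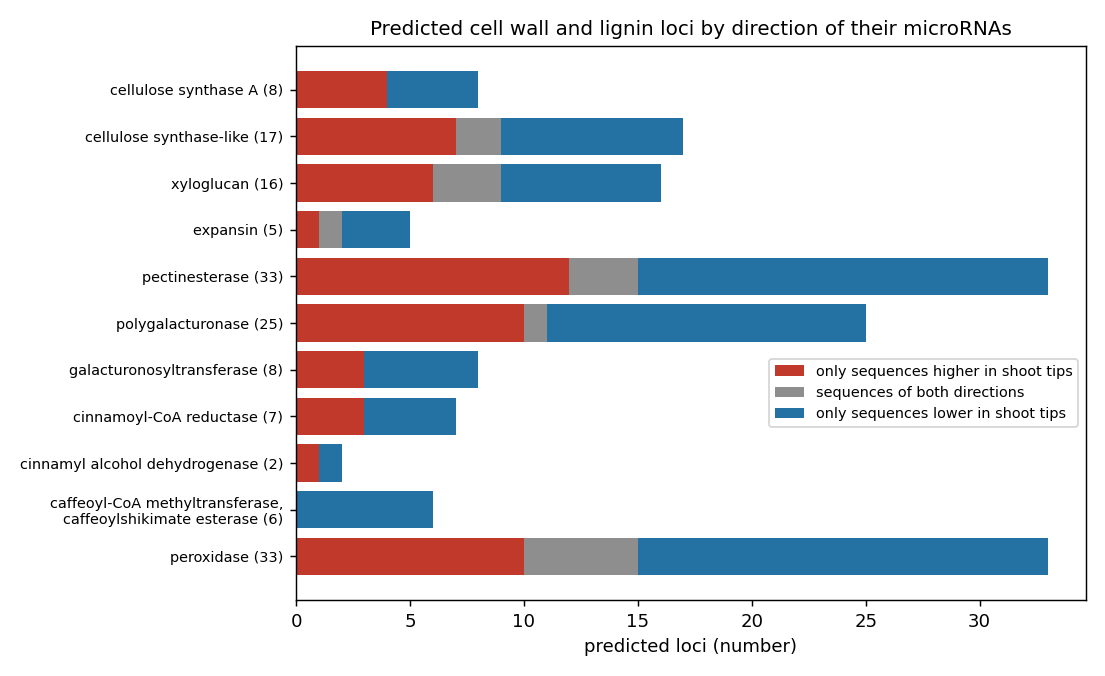
Number of predicted loci (x axis) in each of 11 classes (y axis, class size in brackets), split by whether the microRNA sequences predicted for a locus were all higher in shoot tips (red), all lower (blue) or of both directions (grey). The bars of caffeoyl loci are blue alone, while cellulose synthase A has 4 red and 4 blue loci.

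The 8 loci of cellulose synthase A, the catalytic subunit that spins cellulose at the plasma membrane, were predicted for 10 sequences, 6 higher and 4 lower. Subunits of type 1, 2 and 3 build the primary wall and those of type 4 and 8 the secondary wall. Loci of both kinds stood on both sides, with 3 of 6 primary wall loci and 1 of 2 secondary wall loci predicted for higher sequences only. The secondary wall locus POPTR_0004s05830 (type 8) and the primary wall locus POPTR_0018s01540 (type 1) shared their sequences, miR169t and miR169ae with miR169af, which have the same seed. MiR169ae stood at 94.4 in shoot tips against 23.9 in leaves (log2 fold change 1.95 and FDR 0.00533 by the authors' deposited table). Its recovered libraries were at 66.9 and 122 in shoot tips and at 23.8 and 23.9 in leaves, so the tissues did not overlap. MiR169t stood at 70.7 against 22.3 (log2 fold change 1.64 and FDR 0.0308 by the authors' deposited table), with libraries at 56.7 and 84.7 against 19.4 and 25.2.

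The other cellulose synthase A loci were predicted for sequences of their own. POPTR_0009s06560 (type 3), with 3 sequences the locus with the most in its class, had miR3627a at 186 against 78.0 and the near-identical pair m1702-3p and m1831-5p. Both members of this pair were listed at 10.1 in shoot tips and at 0 in leaves, with equal library values of 17.3 and 2.86, at least 5.06-fold higher. Their signals are identical although their sequences differ, and how reads matching both were assigned is not stated, so their separate values are uncertain. POPTR_0001s27320, also of type 3, had m0661-3p alone. On the lower side, m2623-3p was predicted for POPTR_0006s26810 (type 1) and POPTR_0005s21620 (type 2). M2623-3p stood at 333 in shoot tips against 3635 in leaves (log2 fold change -3.42 and FDR 1.16e-13 by the authors' deposited table). It was the most abundant sequence of this class in both tissues, and its leaf libraries were far apart at 1869 and 5401, yet both lay above the shoot tip libraries at 305 and 361. The secondary wall locus POPTR_0002s25970 (type 4) had a pair of sequences listed at 0 in shoot tips, m0773-5p at 10.2 in leaves and m1792-3p at 9.28. POPTR_0005s08970 (type 2) had m0762-5p, at 15.6 against 53.9.

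Cellulose synthase-like proteins make other wall glucans or mannans. Their 17 loci divided into 7 with higher sequences only, 8 with lower ones only and 2 with both. Within the class, the D group, known for tip-growing root hairs and pollen tubes, had 6 of 9 loci on the lower side only. Of all predicted loci 55.9% were on the lower side only and 33% on the higher side only, and these groups are small. The 3 loci whose best hits were rice proteins of groups E or H all had higher sequences only. M2568-3p (9.09 against a listed 0, FDR 0.0493 by the authors' deposited table) was predicted for 2 of them and m2175-5p for the other. The recovered shoot tip libraries of m2175-5p were at 22.04 and 1.90, so its signal of 12.0 rests mostly on 1 library. In group D the loci POPTR_0001s01880 and POPTR_0003s09580, both like Arabidopsis CSLD3, shared miR482c-3p, at 2071 against 4839.5 (log2 fold change -1.22 and FDR 0.000551 by the authors' deposited table). On the other side, the D4-like locus POPTR_0009s17100 had the sequences of miR319a and miR319e, the 2 most abundant higher sequences of the 160 loci. MiR319a had 92273 in shoot tips and 716 in leaves in the authors' deposited table (log2 fold change 6.98).

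A locus of the D group, POPTR_0013s07900, joined sequences of both directions: miR159c (444 against 72.3) and m2141-5p (55.3 against 2.65) on the higher side and m0773-5p on the lower. The libraries of m2141-5p were at 66.9 and 43.8 in shoot tips and at 2.65 and 2.66 in leaves. Beside each other in identifier number, POPTR_0003s14220 and POPTR_0003s14240 of group G shared the 3' arm of miR394, while POPTR_0003s14230 between them had m0094-3p alone. MiR394b-3p had 1499 in shoot tips and 100.3 in leaves, with libraries at 1137 and 1861 against 116 and 85.0. POPTR_0003s14220 also had miR473a-3p, which was lower (35.0 against 227). M0071-3p, predicted for the D3-like locus POPTR_0019s07620, was listed at 0 in shoot tips and at 13.3 in leaves, at least 9.29-fold lower.

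The xyloglucan class held 16 loci, 6 with higher sequences only, 7 with lower ones only and 3 with both. Its endotransglucosylases/hydrolases, which cut xyloglucan chains and rejoin them, divided evenly into 4 and 4 loci. The neighbours POPTR_0002s06120 and POPTR_0002s06130, both like protein 15, shared miR6425a-5p (39.1 against 4.64), and the first of them also had miR169t. POPTR_0001s12640 had miR398a and miR398b, which differ at 2 positions. MiR398b had 77.4 in shoot tips and 19224 in leaves, the largest fall among sequences above 0 in both tissues (log2 fold change -7.93 and FDR 1.05e-115 by the authors' deposited table). Its shoot tip libraries were at 55.9 and 98.98.

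The galactosyltransferases of the KATAMARI1 type add galactose to xyloglucan side chains. POPTR_0001s00300 and POPTR_0003s11170, both of this type, carried the same pair of opposed sequences, miR1446b and miR6421-3p. MiR1446b stood at 1383 against 305 (log2 fold change 2.17 and FDR 7.38e-08 by the authors' deposited table), with libraries at 1060 and 1707 against 240 and 371. MiR6421-3p stood at 228 against 1579.5 (log2 fold change -2.78 and FDR 2.41e-14 by the authors' deposited table), with libraries at 172 and 285 against 1603 and 1557. Neither sequence overlapped between tissues, and the more abundant of the pair was miR1446b in shoot tips and miR6421-3p in leaves. The other names of the miR1446 sequence, miR1446c to miR1446e, had about 699 and 217 to 222, so the level depends on the name taken.

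ALTERED XYLOGLUCAN 4, which acetylates xyloglucan, had 3 loci, and m1720-5p was predicted for 2 of them, POPTR_0008s14540 and POPTR_0010s10570. M1720-5p had 18.0 in shoot tips and was listed at 0 in leaves, at least 9.03-fold higher, with libraries at 23.6 and 12.4. POPTR_0008s14540 also had miR408-5p, a lower sequence. The shoot tip signal of miR408-5p was 1 read, so counting error alone leaves its leaf to shoot tip ratio of 195 anywhere between 34.5 and 7771 (exact 95% interval).

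Expansins loosen the wall without cutting its polymers, and their 5 loci had 1 with higher sequences only, 3 with lower ones only and 1 with both. MiR408-3p, known for copper supply and for laccase and plantacyanin targets, was the one sequence of POPTR_0001s03830 (expansin-A15-like) and POPTR_0003s08140 (expansin-like B1). It stood at 123.4 in shoot tips against 10242 in leaves (log2 fold change -6.34 and FDR 1.21e-51 by the authors' deposited table). Its shoot tip libraries were at 66.9 and 180, and those of leaves were not recovered. These were 2 of the 130 loci predicted for miR408-3p, and its only ones among the 160. POPTR_0001s41210, like expansin-A12, had 4 sequences: miR159d, miR159e and miR319e on the higher side and m1580-3p on the lower. MiR319e had 35824 against 323 and miR159d 1868 against 489. MiR159e had 167 against 4.64 (log2 fold change 5.06 and FDR 2.47e-13 by the authors' deposited table), with libraries at 170 and 165 against 5.29 and 3.98. M1580-3p was listed at 0 in shoot tips and at 9.06 in leaves. The first 3 of these are near-identical sequences and do not count as 3 separate predictions. POPTR_0003s20750 (expansin-A10-like) had m0911-3p, at 12.1 against a listed 0, and POPTR_0019s13300 (expansin-B3-like) had m1403-5p, at 9.73 against 39.3.

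The plot of signals of the 82 sequences shows these levels together.

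**Figure D2:**
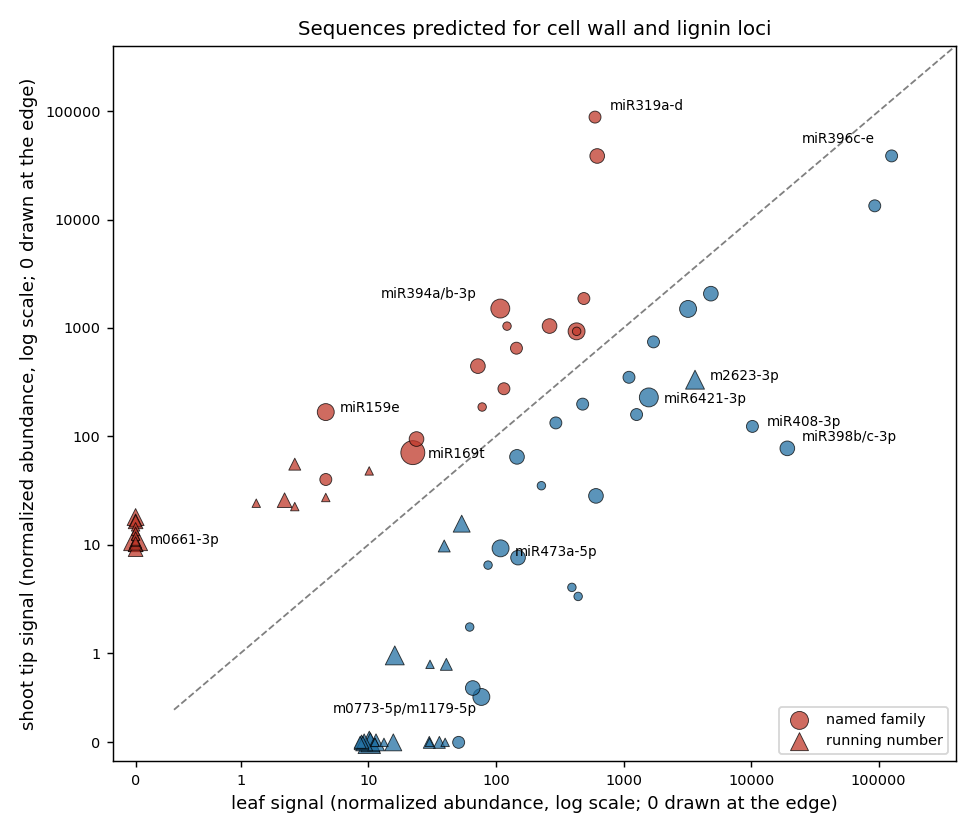
Signal in shoot tips (y axis) against signal in leaves (x axis), both normalized abundance on log scales with 0 drawn at the edge, for the 82 sequences of the wall and lignin loci; red is higher and blue lower in shoot tips, circles are named families and triangles numbered sequences, the area grows with the number of wall loci, and the dashed line marks equal signals. The 15 sequences at the left edge are listed at 0 in leaves and the 16 at the bottom edge at 0 in shoot tips, and the highest of the first has a shoot tip signal of 18.0.

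Pectinesterases strip methyl groups from homogalacturonan, which lets calcium stiffen pectin or lets polygalacturonases cut it. Their 33 loci had 12 with higher sequences only, 18 with lower ones only and 3 with both, and were predicted for 31 sequences, 13 higher and 18 lower. No sequence was predicted for more than 2 of them. MiR6459a-3p was predicted for POPTR_0006s27270 and POPTR_0896s00200, at 930.3 in shoot tips against 429 in leaves (log2 fold change 1.11 and FDR 0.00322 by the authors' deposited table). MiR6459b, predicted for POPTR_0002s14660, is complementary to it over 18 nt and had the same shoot tip signal of 930.3, so their reads may not be separate. POPTR_0006s13690, like pectinesterase 45, had the abundant miR319 sequences.

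Other pectinesterase loci shared sequences with cellulose synthases. M1792-3p was predicted for POPTR_0002s19600 and POPTR_0006s13740 besides the type 4 cellulose synthase, and miR169t and miR169ae for POPTR_0010s11960. MiR398b, again the most leaf-biased sequence of its class, was predicted for POPTR_0008s01180. The one pectinesterase inhibitor, POPTR_0005s02210, had m0531-5p alone. In leaves its libraries were at 58.2 and 2.66, and in shoot tips at 1.57 and 0, from 2 reads. The ratio of leaf to shoot tip signal was 38.7, with a 95% counting interval of 10.3 to 326, but the nearest libraries of both tissues were only 1.69-fold apart.

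Polygalacturonases cut the pectin backbone. Their 25 loci had 10 with higher sequences only, 14 with lower ones only and 1 with both. The 3' arm of miR394 was predicted for 3 of them, more than any other sequence: POPTR_0008s23150, POPTR_0011s16230 and POPTR_0016s05510. The last of these also had miR398b and was the locus with both directions. MiR394a-3p stood at 1520.0 in shoot tips against 116 in leaves (log2 fold change 3.68 and FDR 4.61e-22 by the authors' deposited table), with libraries at 1156 and 1884 against 131 and 101. The neighbours POPTR_0017s03940 and POPTR_0017s03950 had miR164a alone, whose known targets are NAC factors. MiR164a stood at 158 against 1243 (log2 fold change -2.96 and FDR 2.90e-16 by the authors' deposited table), with libraries at 122.8 and 193 against 1206 and 1280.

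Exopolygalacturonases, which cut from the chain end and are known from pollen, had 4 of 7 loci on the higher side and 3 on the lower. POPTR_0519s00200 and POPTR_0519s00220 had miR160a (266 against 110), while POPTR_0002s20320 and POPTR_0002s20330 had miR398c-5p, whose shoot tip signal was 1 read. The ratio of its signals was 138, with an interval of 24.4 to 5512. Both loci like QRT3, which separates pollen grains, had lower sequences only. M0793-5p, predicted for QRT3-like POPTR_0003s07300 and for POPTR_0002s20330, was listed at 0 in shoot tips and at 30.0 in leaves, at least 21.05-fold lower. POPTR_0007s00390 had the 2 most abundant leaf sequences of the 160 loci, miR396a and miR396c. MiR396d, with the sequence of miR396c, stood at 38747 in shoot tips against 126570.4 in leaves (log2 fold change -1.70 and FDR 3.79e-08 by the authors' deposited table). M1147-5p, predicted for POPTR_0005s00720, was at 16.6 against a listed 0, at least 8.32-fold higher.

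Galacturonosyltransferases include the enzymes that build the pectin backbone. Of their 8 loci, 5 of 6 GAUT loci had lower sequences only, and both GATL (galacturonosyltransferase-like) loci and the GAUT10-like locus POPTR_0019s13610 had higher ones only. These are too few loci for a division by kind to be read from them. POPTR_0016s15070, like GAUT7, was predicted for all 4 miR396 sequences, which are known to target growth-regulating factors. In the authors' deposited table their log2 fold changes were -2.79 for miR396a, -1.70 for miR396c, -1.20 for miR396f and -1.10 for miR396g-5p, the last being the smallest in size of all listed. Their order by leaf signal was miR396c, miR396a, miR396g-5p (3208) and miR396f (1719). M2623-3p was predicted for POPTR_0004s12340 and POPTR_0017s12650, both like GAUT14, besides 2 cellulose synthase loci and the peroxidase locus POPTR_0010s04550. POPTR_0004s21600, like GAUT3, had m1680-5p, listed at 0 in shoot tips and at 27.6 in leaves, at least 19.4-fold lower. The GATL4-like loci POPTR_0001s11640 and POPTR_0003s14910 each had a miR159 sequence, miR159d and miR159e, and a numbered one.

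In the lignin pathway, cinnamoyl-CoA reductase makes the aldehydes from which cinnamyl alcohol dehydrogenase forms the monolignols. The 7 reductase loci had 3 with higher and 4 with lower sequences only, and none with both. MiR6457b was predicted for POPTR_0006s19260 and POPTR_0018s10950. It stood at 28.2 in shoot tips against 608 in leaves (log2 fold change -4.40 and FDR 1.04e-28 by the authors' deposited table), with libraries at 30.7 and 25.7 against 586 and 631. POPTR_0001s26360 had miR396f and miR396g-5p, and POPTR_0009s06270 had m1702-3p and m1831-5p. The loci POPTR_0001s14940 and POPTR_0001s14980, close in identifier number, had opposed sequences, m0661-3p (higher) and m0129-5p (lower). M0129-5p was listed at 0 in shoot tips and at 15.7 in leaves. The 2 dehydrogenase loci were opposed too. POPTR_0009s09870 had m0661-3p, and POPTR_0003s19610 had m0773-5p.

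The caffeoyl class held the esterase that frees caffeic acid from its shikimate ester (4 loci) and the methyltransferase that makes feruloyl-CoA (2 loci). All 6 loci and all 7 of their sequences were on the lower side, while 57.9% of all listed sequences were; with so few loci no more is read from it. MiR403c-5p, predicted for POPTR_0010s11500, stood at 350.4 in shoot tips against 1104 in leaves (log2 fold change -1.65 and FDR 1.14e-06 by the authors' deposited table). Its libraries were at 327 and 374 against 1137 and 1072. MiR403a, predicted for POPTR_0011s16720, stood at 201 against 490.3 (log2 fold change -1.28 and FDR 0.0199 by the authors' deposited table), and its nearest libraries, at 286 and 417, were 1.46-fold apart. The methyltransferase locus POPTR_0001s31220 had miR408-5p, and the esterase locus POPTR_0015s05290 had miR393a-5p (5.94 against 84.7) with m0246-3p (listed at 0 against 11.3, the same signals as the near-identical m0094-3p).

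Class III peroxidases are haem enzymes of the wall that couple lignin alcohols, or loosen the wall through radicals. They made up 29 of the 33 peroxidase loci, with 9 on the higher side only, 17 on the lower side only and 3 with both. MiR473a-5p was predicted for 4 of them and for no other of the 160 loci: POPTR_0001s04820, POPTR_0001s04840, POPTR_0001s04850 and POPTR_0001s05050, all like horseradish peroxidase C1A. It stood at 9.25 in shoot tips against 109 in leaves (log2 fold change -3.51 and FDR 2.63e-07 by the authors' deposited table). Its libraries were at 7.09 and 11.4 against 82.1 and 135. The last of these loci also had m2568-3p, a higher sequence. M0866-5p was predicted for POPTR_0004s02230, POPTR_0004s02240, POPTR_0011s00280 and POPTR_1748s00200, all like Arabidopsis peroxidase 27. It was listed at 0 in shoot tips and at 10.4 in leaves (11.5 and 9.30 in the libraries), at least 7.27-fold lower.

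Higher sequences joined other kinds of peroxidase. MiR390a was predicted for POPTR_0010s24340 and POPTR_0466s00200, both like the lignin-forming anionic peroxidase of tobacco (Nicotiana sylvestris), and for no other of the 160 loci. It stood at 650.4 in shoot tips against 144 in leaves (log2 fold change 2.16 and FDR 2.39e-07 by the authors' deposited table), with libraries at 475 and 826 against 149 and 139. POPTR_0001s18270, like peroxidase 48, had 3 related sequences, miR159c, miR159e and miR319i. M0661-3p was predicted for POPTR_0002s03260 and POPTR_0005s25330, both like peroxidase 9, and for POPTR_0007s13420. The last of these loci, like peroxidase 72, also had m1403-5p, a lower sequence.

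The keyword also took 4 peroxidases that are not wall enzymes, 3 ascorbate peroxidases and 1 glutathione peroxidase, which remove peroxides inside the cell. The chloroplast ascorbate peroxidase loci POPTR_0005s20140 and POPTR_0002s08240 had opposed predictions. Both had miR6459a-3p (higher) with m0129-5p and m0130-5p (lower), and the first also had m1147-5p (higher). M0130-5p was listed at 0 in shoot tips and at 36.0 in leaves, at least 25.2-fold lower, with leaf libraries at 25.6 and 46.5. It is the same 20 nt as m0129-5p moved by 1 base, so these count as 1 lower sequence. Without these 4 loci, the cellulose synthase-like loci, the galacturonosyltransferases and the pectinesterase inhibitor, the wall loci had 57 with a higher and 84 with a lower sequence. For all 160 loci these counts were 72 and 103, shares near the 44.1% and 67% of all predicted loci. Nothing particular to wall loci is read from the smaller set.

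Most wall loci had 1 sequence: 122 had 1, 31 had 2, 4 had 3 and 3 had 4. Of the 38 loci with several, 11 had only related sequences (joined by at most 3 differences or by 1 seed), and 27 had unrelated ones. From the other side, 24 sequences had 1 wall locus, 24 had 2 and 34 had 3 or more, and 33 of the 82 stayed within 1 class. The 3 broadest sequences reached 6 of the 11 classes each. M0661-3p was predicted for 8 wall loci out of 84 in all (9.52%), among them both lignin reductions, a cellulose synthase and 3 peroxidases. It had 11.4 in shoot tips and was listed at 0 in leaves, at least 5.71-fold higher, and its 27 reads divided into libraries at 14.2 and 8.57. MiR169t was predicted for 8 of 145 loci (5.52%) and m0773-5p for 7 of 174 (4.02%). M0773-5p had 10.2 in leaves, with libraries at 4.41 and 15.9, and was at least 7.13-fold lower in shoot tips. All 3 shares lie above the 1.55% of all predicted loci, and they were picked as the highest counts.

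**Figure D3:**
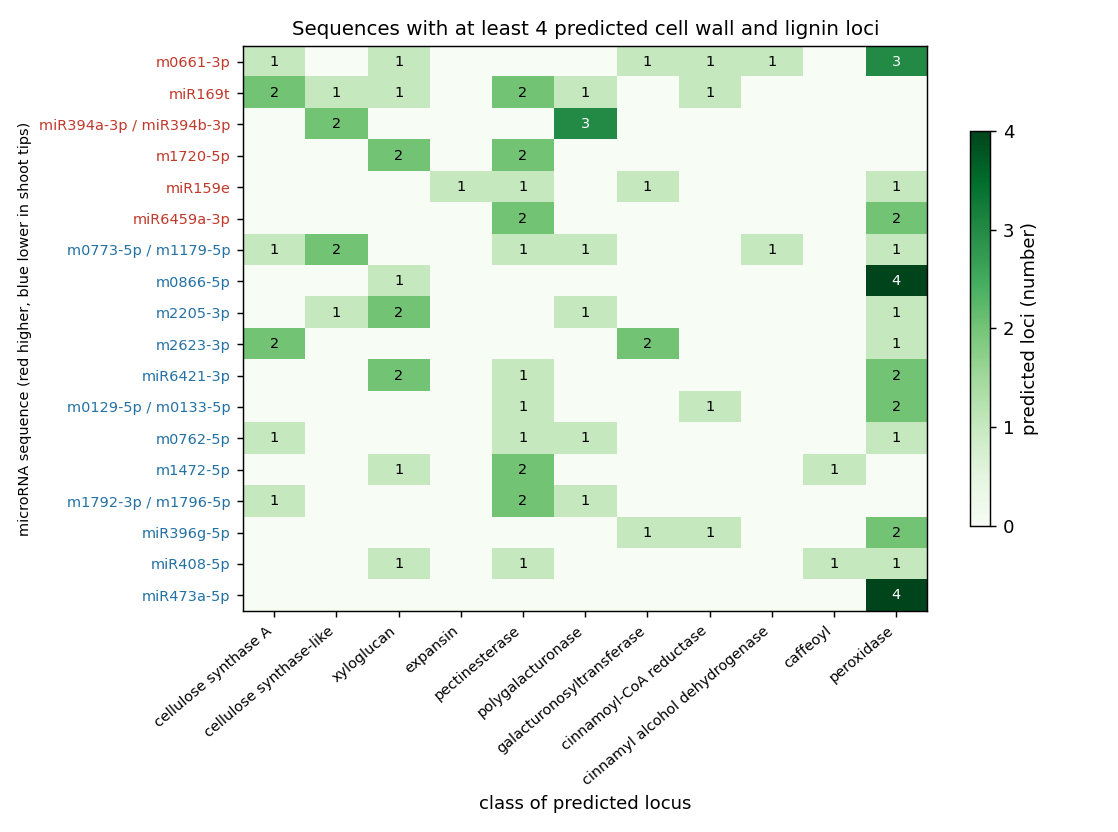
Number of predicted loci (colour and digit, 0 left blank) for each microRNA sequence with at least 4 wall and lignin loci (y axis; red names are higher and blue names lower in shoot tips) in each of 11 classes (x axis). MiR473a-5p fills 1 cell, peroxidase with 4, while m0661-3p is spread over 6 classes.

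Neighbouring loci often had different sequences. Among wall loci of 1 class whose identifiers on a scaffold lie within 100 of each other there were 15 runs with 36 loci, and in 8 runs at least 2 loci shared a sequence while in 7 they shared none. All 5 runs of pectinesterases shared none. Among these the 4 loci POPTR_0006s13670, POPTR_0006s13690, POPTR_0006s13700 and POPTR_0006s13740 had 5 sequences, 2 higher (both miR319) and 3 lower. All 3 runs of polygalacturonases and 3 of 4 runs of peroxidases shared at least 1. Identifiers were used as order only, since the loci carry no coordinates here.

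In length, the higher wall sequences were mostly of the longer kind. Of the 37 higher sequences 19 had 24 nt and 9 had 21 nt, whereas of the 45 lower ones 4 had 24 nt and 28 had 21 nt. The whole table divided in the same way, with 23 of 45 higher and 5 of 62 lower sequences at 24 nt. All 19 of the higher wall sequences of 24 nt were numbered, 14 of them were listed at 0 in leaves, and the most abundant had a signal of 55.3 in shoot tips. Small RNAs of 24 nt are, as background, usually those that silence transposons through DNA methylation, while most plant microRNAs have 21 nt. A uracil stood first in 18 of 37 higher and 29 of 45 lower sequences. The 82 sequences had 75 seeds, and the 7 seeds shared by 2 sequences each had sequences of 1 direction.

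Reads of both tissues could be recovered for 75 of the 82 sequences, 35 higher and 40 lower. For none of their 125 names did the libraries of the 2 tissues overlap; the same held for 100% of the 170 names of the table with recovered reads. Since every name had been selected by the authors' FDR, this adds no support. For 14 of the 125 names the nearest libraries were less than 2-fold apart, m0531-5p and all names of miR403a's sequence among them. No such ratio exists for the 51 names with 0 reads in 1 tissue, so none of these could be among the 14. A further 8 names rested on 1 to 3 reads in a tissue.

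**Figure D4:**
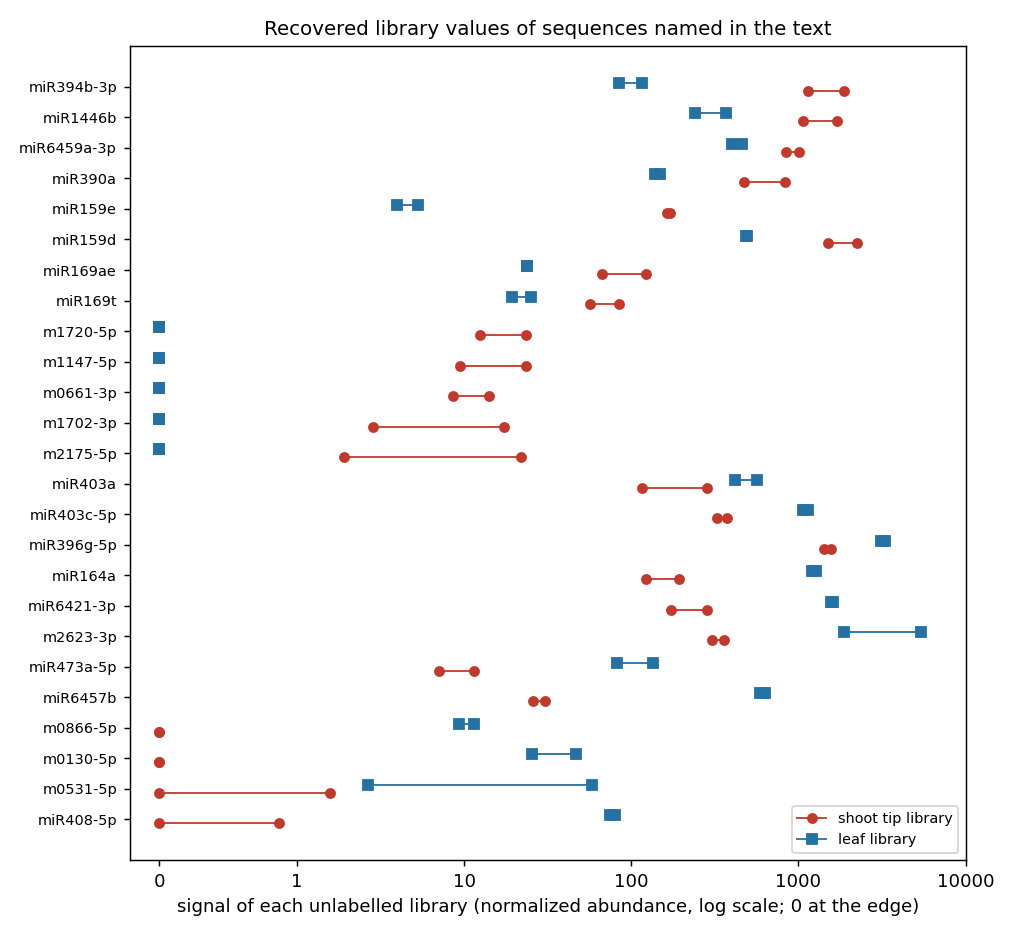
Recovered signal of each unlabelled library (x axis, normalized abundance, log scale, 0 at the edge) for 25 microRNA names described in the text (y axis); red circles are shoot tip libraries, blue squares leaf libraries, and lines join the 2 libraries of a tissue. The libraries of m0531-5p in leaves (2.66 and 58.2) and of m2175-5p in shoot tips (1.90 and 22.04) lie far apart.

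Other wall and lignin genes were looked up by 15 further descriptions. Without laccases they gave 129 loci, of which 61 (47.3%) had a higher and 90 (69.8%) a lower sequence, shares again near those of all predicted loci. Upstream in the lignin pathway, 2 of 3 loci described as 4-coumarate CoA ligase and 2 of 2 of cinnamate 4-hydroxylase had lower sequences only, against 55.9% of all predicted loci. Both of these ligase loci had miR398c-5p alone, and both hydroxylase loci had m0070-3p (listed at 0 against 8.85). The hydroxylase locus POPTR_0019s15110 had miR398c-5p as well, so these loci do not count as separate predictions. Of 10 further loci described as 4-coumarate CoA ligase-like, whose part in lignin formation is not shown by that description, 8 had lower sequences only. Several of these shared miR398c-5p or m1027-3p. All 4 dirigent loci, which steer the coupling of monolignols, had lower sequences only, and POPTR_0008s04910 and POPTR_0010s21860 among them shared m0571-3p. Both phenylalanine ammonia-lyase loci, the entry to the pathway, had sequences of both directions, against 11.1% of all predicted loci. They shared m1666-3p (higher) and miR1444a (lower), so they do not count as separate predictions. Of the 6 pectate lyase loci 5 had lower sequences only, and POPTR_0015s09930 and POPTR_0017s11450 among these shared miR3627b. Of the endoglucanases, a family that includes the cellulase needed for cellulose synthesis, 8 of 12 loci had higher sequences only, against 33% of all predicted loci. Fasciclin-like arabinogalactan proteins, known from poplar wood, had 17 of 23 loci (73.9%) with a higher and 16 (69.6%) with a lower sequence. Among all predicted loci these shares were 44.1% and 67%. Many of the fasciclin-like loci shared miR3627a on the higher side or m0531-5p, whose leaf libraries lay far apart, on the lower side. They therefore do not count as separate predictions. Callose synthases had 4 of 9 loci with a higher and 8 with a lower sequence, extensins and leucine-rich repeat extensins 17 and 33 of 45, and loci described by xylosyltransferase or glucuronoxylan, not all of them xylan enzymes, 5 and 4 of 7. Higher sequences only were predicted for 2 of 3 COBRA loci, 1 of 2 loci of caffeic acid methyltransferase and the 1 ferulate 5-hydroxylase locus, and 0 loci matched hydroxycinnamoyltransferase. The laccases left out of the choice had 39 of 41 loci with a lower sequence and 7 with a higher one. Among all predicted loci 67% had a lower and 44.1% a higher sequence. Most of the laccase loci had miR397a, listed at 0 in shoot tips and at 51.1 in leaves, so their count rests largely on 1 sequence.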

How the data were processed

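Per the labels' protocols, RNA came from a Trizol extraction with a TaKaRa kit, and libraries followed Illumina's standard method. How reads were trimmed, aligned, called, scaled and tested, and how targets were predicted, is not given in the sources used here. In all, the authors deposited 1 table of their own comparison with 27252 lines, 1215 of them repeats. It holds 1 normalized signal per tissue, pooled over both libraries by the authors. A log2 fold change (shoot tip over leaf) and an FDR, which is an adjusted p-value, stand beside them in the authors' deposited table. That fold change differed from the log2 ratio of the signals by at most 0.1 in 74 of the 91 member names with no signal at 0, and by at most 0.90 in all of them.

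Members were matched by description, each locus entered 1 of 11 classes, and names with 1 sequence were counted once at their median. Sequences counted as near-identical with at most 3 differences over at least 17 nt. The members and lists were chosen with earlier results of these data known. Of the member loci 0 matched the reference gene table, so no coordinates are given. The planned tests on values per library could not be run on 1 signal per tissue, and no test of the tissue difference was added to the authors' FDR below 0.05.

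Per class the text names the 2 sequences with the most loci, the sequence highest in each tissue, the one with the largest change in each direction at a signal of at least 5, and the 2 loci with the most sequences, which gave 30 sequences and 22 loci. Others were chosen after their values were seen. Where names of 1 sequence differ, the value of the name printed is given.

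Reads were recovered for signals up to 5000 as whole multiples of 2 steps between 0.15 and 1.5. Of the pairs of steps that fitted, 9 for shoot tips and 11 for leaves, the coarsest was used, so read numbers are minima. On data simulated from the chosen steps, 321 of 329 solutions for shoot tips and 324 of 325 for leaves were kept, and all kept ones were right. Because the simulation used the chosen steps, it cannot show which of the fitting pairs is the true one. Which replicate a library is remains unknown, and intervals cover counting error only. A ratio is of deposited signals. Python 3.11.15, numpy 2.4.6, pandas 2.3.3, scipy 1.17.1 and matplotlib 3.10.9 were used.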

Additional observations from a re-analysis of the deposited data

How the results depend on the processing

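Counts by direction kept their order under every alternative run that gave counts, with more lower than higher loci and sequences each time. The whole table has the same order, with 42.1% of sequences higher and 57.9% lower, and for loci 44.1% and 67%. The order is therefore not particular to wall loci. An FDR below 0.01 left 41 loci with a higher and 60 with a lower sequence, 19 higher and 30 lower sequences, and a median log2 fold change of -2.67. Named families alone gave 36 and 51 loci and 16 higher and 24 lower sequences, while of all listed sequences 19 named ones were higher and 33 lower. These counts of loci are given without the same count over all predicted loci, so nothing particular to wall loci is read from them. Counting each name once gave 59 higher and 83 lower names and a median of -1.70. Each of these runs counts fewer or repeated names, and what moved the medians was not tested. A signal of at least 5 and stricter classes moved no count by over 1.5 times. The signal limit could remove nothing, since the lowest signal in the higher tissue was 8.62. A pseudocount of 1 and sequences above 0 in both tissues alone were run for the median only, at -1.22 and -1.20. The last of these leaves out 15 of 37 higher and 16 of 45 lower sequences. It and the library checks below were added after the data were seen. A total without miR159 and miR319 was also added later, with signals read as parts of a fixed total. It shifts all other log2 fold changes up by 0.73, towards shoot tips. With a 2-fold limit it left 66 and 89 loci and 31 and 37 sequences. The higher sequences lost were those of miR159 and miR319 themselves, since an upward shift takes no higher sequence under the limit. The lower sequences lost fell under the limit. Leaving out each unlabelled library in turn left 33 to 35 higher and 37 to 40 lower sequences at least 2-fold apart. Leaving out labelled replicates was not run. No paired analysis was possible because the table has 1 column per tissue and no replicate numbers. Signals near 10 rest on about 15 to 30 reads, which limits how well their size is known.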
